A study of Homo sapiens with 2 samples.

Results

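Glycolysis and hypoxia genes are 37 genes that encode the enzymes, transporters and regulators of glucose breakdown, genes that cells switch on when oxygen is low, and the subunits of the hypoxia-inducible factor (HIF) that links them. They were chosen by gene name, with earlier results of these data known. Each of the 37 names had 1 record among the 11420 gene records of the table. They were read in 4 classes: 17 glycolytic enzymes, 5 transporters and flux regulators, 12 hypoxia-induced genes that are not glycolytic, and 3 HIF subunits. mRNA of HCT116, an established line of human colorectal carcinoma cells, was sequenced 96 hr after infection with lentiviruses that expressed either LAST shRNA or control shRNA. LAST is a long noncoding RNA induced by c-Myc, and the comparison asks which mRNAs change when it is depleted. Only 1 LAST hairpin was used for sequencing, both groups were infected with lentivirus and grown in the same medium, and the labels name no hypoxic treatment. The level of LAST was not read here, and the library labels thus have no check from the targeted gene.

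Each group had 1 library, so the differences below are between 2 libraries and carry no test and no error. Values are FPKM, which scales the fragments of a gene to transcript length and library size, and the reads behind them are unknown. The log2 ratio is the value of log2(FPKM + 1) in the LAST shRNA library minus that in the control library, and the added 1 shrinks the ratio of genes with a low level. A gene is called higher at a log2 ratio of 0.58 or above and lower at -0.58 or below, the size of change used by the study. Folds are plain ratios of FPKM. Of 7 colon epithelial markers 6 were measured, and VIL1 had no record in the table as read here. Of the 6 measured markers 0 passed a threshold, with log2 ratios from -0.35 to 0.45. EPCAM was at 139 FPKM with LAST shRNA and 137 in the control, CDH1 at 22.0 with LAST shRNA against 15.8 in the control, and the intestinal transcription factor gene CDX2 was low, at 1.02 with LAST shRNA against 1.58 in the control. Of 12 markers of stromal, immune, endothelial, liver and neural cells, COL1A1 and CD68 were measured, and the other 10 had no record in the table as read here. The summed FPKM of COL1A1 and CD68 was 5.16 with LAST shRNA and 2.89 with control shRNA. CD68, a macrophage marker, was called higher, at 3.26 with LAST shRNA against 1.58 in the control (0.72), and COL1A1 was at 1.90 with LAST shRNA against 1.32 in the control (0.33). Their part in the results was not tested.

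Glycolysis splits glucose into pyruvate in the cytosol and, when pyruvate is reduced to lactate, yields ATP without oxygen. HIF is a pair of an alpha subunit, made by HIF1A or EPAS1, and the stable partner ARNT. With oxygen present, the EGLN prolyl hydroxylases mark the alpha subunit for capture by VHL and destruction, so that HIF activity is set largely at the level of protein stability. In low oxygen the subunit persists and binds hypoxia response elements with the core letters ACGTG or GCGTG, in genes of glucose uptake, glycolysis, mitophagy, blood vessel growth, pH control and collagen synthesis. Tumour cells often run glycolysis at a high rate even in oxygen, and c-Myc also drives several of the same enzymes.

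In these 2 libraries the 12 hypoxia-induced member genes were shifted upward with LAST shRNA, and the glycolytic enzymes less so. Of the 12 hypoxia-induced genes that are not glycolytic, 6 were higher and 0 were lower, with a median log2 ratio of 0.61. Of the 17 glycolytic enzymes, 1 was higher and 0 were lower, with a median of 0.21. The difference of the class medians, enzymes minus hypoxia-induced genes, was -0.40. It holds for these 12 genes, as 33 further hypoxia-induced genes described below had a median of 0.29, nearer to that of the enzymes. Among the 5 transporters and flux regulators 2 were higher, with a median of 0.48, and the 3 HIF subunits lay between the thresholds, with a median of 0.08. Over all records 6.80% were higher and 5.88% were lower, and the median was 0.01. Altogether 9 of the 37 genes were higher, 0 were lower, and 33 were above 0, where 51.3% of all records were above 0. By plain fold, 7 of the 37 genes had a fold of 2 or above, where 5.23% of the 11373 records above 0 in the control were, and 3 genes (ADM, ANKRD37 and SLC2A1) had a log2 ratio of 1 or above, where 2.78% did. The enzymes' count of 1 in 17 was close to the 6.80% of all records, while 15 of the 17 were above 0.

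**Figure D1:**
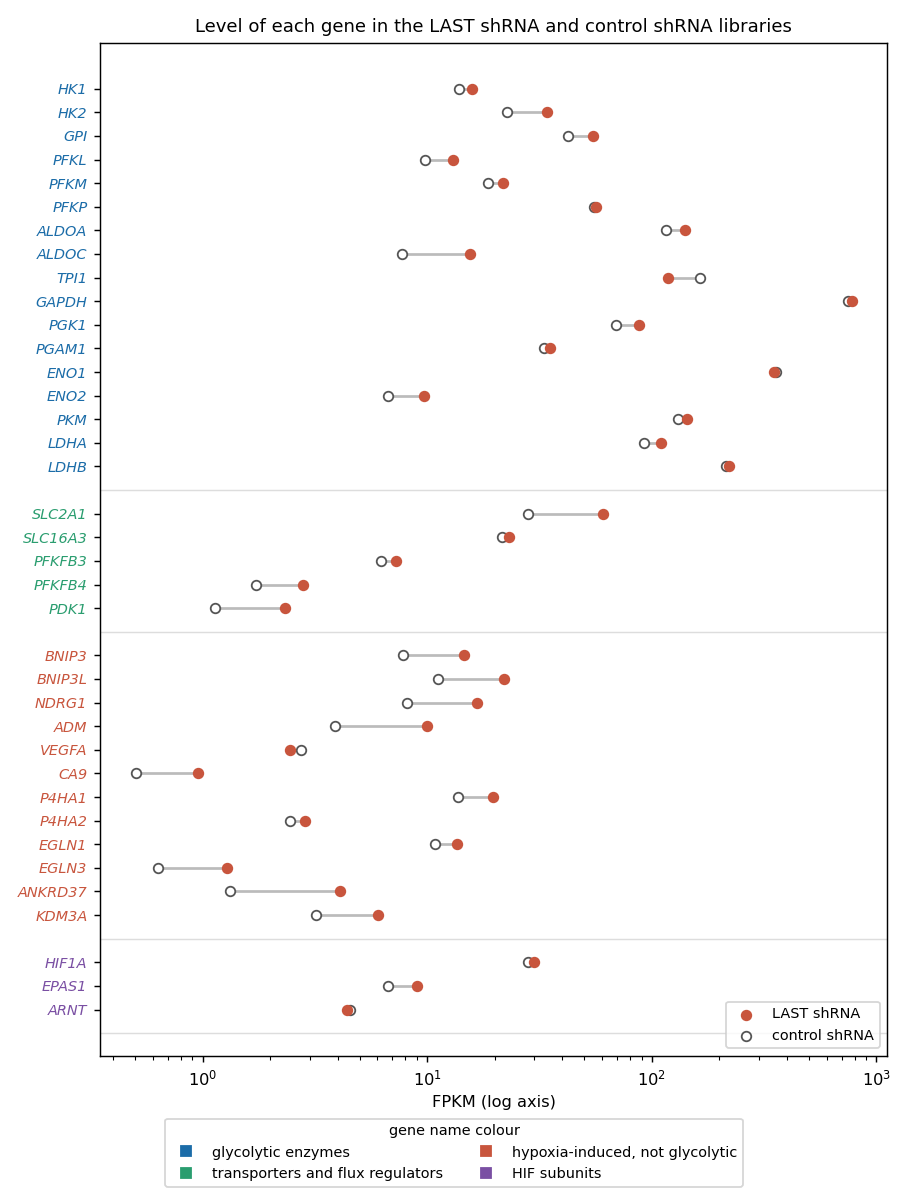
FPKM of each of the 37 genes on a log axis, with filled points for the LAST shRNA library and open points for the control shRNA library, 1 library each, grouped by class. The filled point lies to the right for 33 genes, with wide gaps for SLC2A1, ADM and ANKRD37, while TPI1 lies at 118 with LAST shRNA against 165 with control shRNA.

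ADM, which encodes the vasodilator peptide adrenomedullin, had the highest log2 ratio of the 37 genes. It was at 9.99 FPKM with LAST shRNA and 3.87 with control shRNA, a 2.58-fold difference (log2 ratio 1.17). ANKRD37, a small ankyrin repeat protein gene and a direct HIF target, was at 4.11 with LAST shRNA against 1.32 in the control, or 3.10-fold higher (1.14), the largest fold of the set. Both genes are small and weakly to moderately expressed. In hg19 ADM (ENSG00000148926.9_2) occupied bases 10326227 to 10328944 of chromosome 11 and ANKRD37 (ENSG00000186352.8_1) bases 186317175 to 186321782 of chromosome 4, both on the plus strand. In ANKRD37 1089 bases overlapped UFSP2 on the opposite strand. UFSP2 itself was at 7.75 FPKM with LAST shRNA and 7.35 with control shRNA (0.07).

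The mitophagy receptors BNIP3 and BNIP3L had similar ratios. BNIP3, a mitochondrial outer membrane protein that recruits the autophagy machinery to mitochondria, was at 14.5 FPKM with LAST shRNA and 7.80 with control shRNA (log2 ratio 0.82). Its paralog BNIP3L, also called NIX, was at 22.0 with LAST shRNA against 11.2 in the control (0.92). Their sum was 36.5 FPKM with LAST shRNA and 18.96 in the control, and BNIP3 held 39.8% of it with LAST shRNA and 41.1% in the control, so the balance of the pair was nearly the same in both libraries. GENCODE names 39 processed pseudogenes after BNIP3 and 0 after BNIP3L, and how reads shared with such copies were assigned is not stated.

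NDRG1, a stress-responsive gene that oxygen lack and iron depletion induce, was at 16.7 FPKM with LAST shRNA and 8.16 with control shRNA, 2.05-fold higher (0.95). KDM3A, a histone demethylase that acts on H3K9 and is itself a HIF target, was at 6.01 with LAST shRNA against 3.20 in the control, 1.88-fold higher (0.74). KDM3A has 27 exons in its longest coding transcript, and the largest holds 13.8% of it.

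The hydroxylases showed smaller ratios. P4HA1, a catalytic subunit of collagen prolyl hydroxylase, was at 19.6 FPKM with LAST shRNA and 13.8 with control shRNA (0.48), while the related subunit P4HA2 was at 2.86 with LAST shRNA against 2.44 in the control (0.17). EGLN1, the main oxygen sensor that hydroxylates HIF alpha, was at 13.6 with LAST shRNA against 10.8 in the control (0.31). EGLN3, a relative that HIF induces strongly in many cells as negative feedback, was at 1.29 with LAST shRNA against 0.635 in the control. That is a fold of 2.03, but the log2 ratio of 0.48 stayed under 0.58 because of the added 1. Its record spans chromosome 14 from 34393437 to 34931980 and overlaps SPTSSA on the same strand by 29568 bases, and SPTSSA was at 17.03 FPKM with LAST shRNA and 14.3 with control shRNA (0.23). EGLN2, a further member of the family, was at 5.07 with LAST shRNA against 4.28 in the control (0.20).

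CA9 and VEGFA, textbook hypoxia genes, were weakly expressed. CA9, the cell surface carbonic anhydrase that buffers acid, was at 0.957 FPKM with LAST shRNA and 0.505 with control shRNA, a fold of 1.89 on a low level (log2 ratio 0.38). VEGFA, the endothelial growth factor, was at 2.44 with LAST shRNA against 2.74 in the control (-0.12), and was the 1 hypoxia-induced gene of the 12 below 0.

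SLC2A1, which encodes GLUT1, the basal glucose transporter of most cells, had a higher ratio than any of the 17 enzymes downstream. It was at 60.5 FPKM with LAST shRNA and 28.2 with control shRNA, 2.14-fold higher (log2 ratio 1.07), the highest level of any of the 9 higher genes. It lay in hg19 on chromosome 1 from 43391046 to 43424844 (ENSG00000117394.19_1). The neuronal type transporter SLC2A3 was at 0.669 with LAST shRNA against 0.317 in the control. SLC16A3, the lactate exporter MCT4 and a HIF target, was at 23.2 FPKM with LAST shRNA and 21.5 with control shRNA (0.11), and the related lactate carrier SLC16A1 at 38.5 with LAST shRNA against 35.9 in the control (0.10).

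The first steps of glycolysis had modest positive ratios. HK2, the hexokinase isoform that tumours induce, was at 34.1 FPKM with LAST shRNA and 22.8 with control shRNA, and its log2 ratio of 0.56 was just under the threshold. HK1, the housekeeping isoform, was at 15.8 with LAST shRNA against 13.9 in the control (0.17). With HKDC1 included, the hexokinase sum was 50.5 with LAST shRNA and 37.4 in the control, and HK2 held 67.5% of it with LAST shRNA and 60.9% with control shRNA. GPI, which isomerises glucose 6-phosphate, was at 54.5 with LAST shRNA against 42.3 in the control (0.36). The phosphofructokinase genes, whose product commits sugar to glycolysis, had ratios of 0.38 for the liver type PFKL, 0.21 for the muscle type PFKM and 0.03 for the platelet type PFKP, and PFKP held 61.8% of their summed FPKM with LAST shRNA and 66.0% with control shRNA.

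The kinases that set the rate and fate of the pathway had weak to moderate levels. PFKFB3 and PFKFB4 make fructose 2,6-bisphosphate, the activator of phosphofructokinase. PFKFB3 was at 7.25 FPKM with LAST shRNA and 6.22 with control shRNA (0.19), and PFKFB4 at 2.81 with LAST shRNA against 1.74 in the control (0.48). PDK1, the kinase that turns off pyruvate dehydrogenase, was at 2.32 with LAST shRNA against 1.14 in the control, 2.03-fold higher (0.63), while PDK2 was at 3.99 with LAST shRNA against 4.74 in the control (-0.20) and PDK3 at 1.53 with LAST shRNA against 2.13 in the control (-0.31). PDK1 thus made up 29.6% of the summed FPKM of these 3 kinases with LAST shRNA and 14.2% with control shRNA, although the sum itself was alike, at 7.84 with LAST shRNA against 8.02 in the control. The largest exon of PDK1 holds 90.5% of its longest coding transcript.

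Among enzymes that split and oxidise the sugar, isoforms differed. ALDOC, the brain type aldolase and a HIF target, was the 1 glycolytic enzyme called higher, at 15.5 FPKM with LAST shRNA and 7.71 with control shRNA, a 2.01-fold difference (log2 ratio 0.92). In hg19 its record (ENSG00000109107.13_2) lay on the chromosome 17 segment from 26900133 to 26904282, and it overlapped the record RP11-192H23.4 on the same strand over 4150 bases, which was at 1.29 with LAST shRNA against 0.966 in the control (0.22). ALDOA, the main isoform, was at 140 with LAST shRNA against 115 in the control (0.28), and ALDOC supplied 9.97% of the aldolase sum with LAST shRNA and 6.26% with control shRNA. TPI1, triose phosphate isomerase, was the enzyme with the lowest ratio, at 118 FPKM with LAST shRNA and 165 with control shRNA, 1.39-fold lower (-0.47), short of the threshold.

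The enzymes of the lower pathway had log2 ratios from -0.03 to 0.47, all short of the threshold. GAPDH, often used as a loading reference, was at 775 FPKM with LAST shRNA and 748 with control shRNA (0.05), and ENO1, the main enolase, at 350 with LAST shRNA against 356 in the control (-0.03). PGK1, the first ATP-yielding kinase of the pathway, was at 87.7 with LAST shRNA against 69.3 in the control (0.34), PGAM1 at 35.1 with LAST shRNA against 33.0 in the control (0.09), and PKM, pyruvate kinase, at 143 with LAST shRNA against 130 in the control (0.13). ENO2, the neuronal enolase that HIF can induce, was at 9.67 with LAST shRNA against 6.68 in the control (0.47) and held 2.68% of the enolase sum with LAST shRNA and 1.83% with control shRNA. LDHA, which turns pyruvate into lactate, was at 110 with LAST shRNA against 92.5 in the control (0.25), and LDHB, the isoform that favours the reverse reaction, at 220 with LAST shRNA against 215 in the control (0.03). LDHA held 33.4% of their sum with LAST shRNA and 30.1% with control shRNA. Summed over the 17 enzymes FPKM was 2200 with LAST shRNA and 2101 with control shRNA, 1.05-fold higher, against 1.72-fold for the 12 hypoxia-induced genes, which summed to 114 with LAST shRNA and 66.4 in the control. Of the 17 enzymes 10 have processed pseudogenes named after them in GENCODE, 100 in all and 61 of them for GAPDH, and the handling of reads shared with these copies is not stated.

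**Figure D2:**
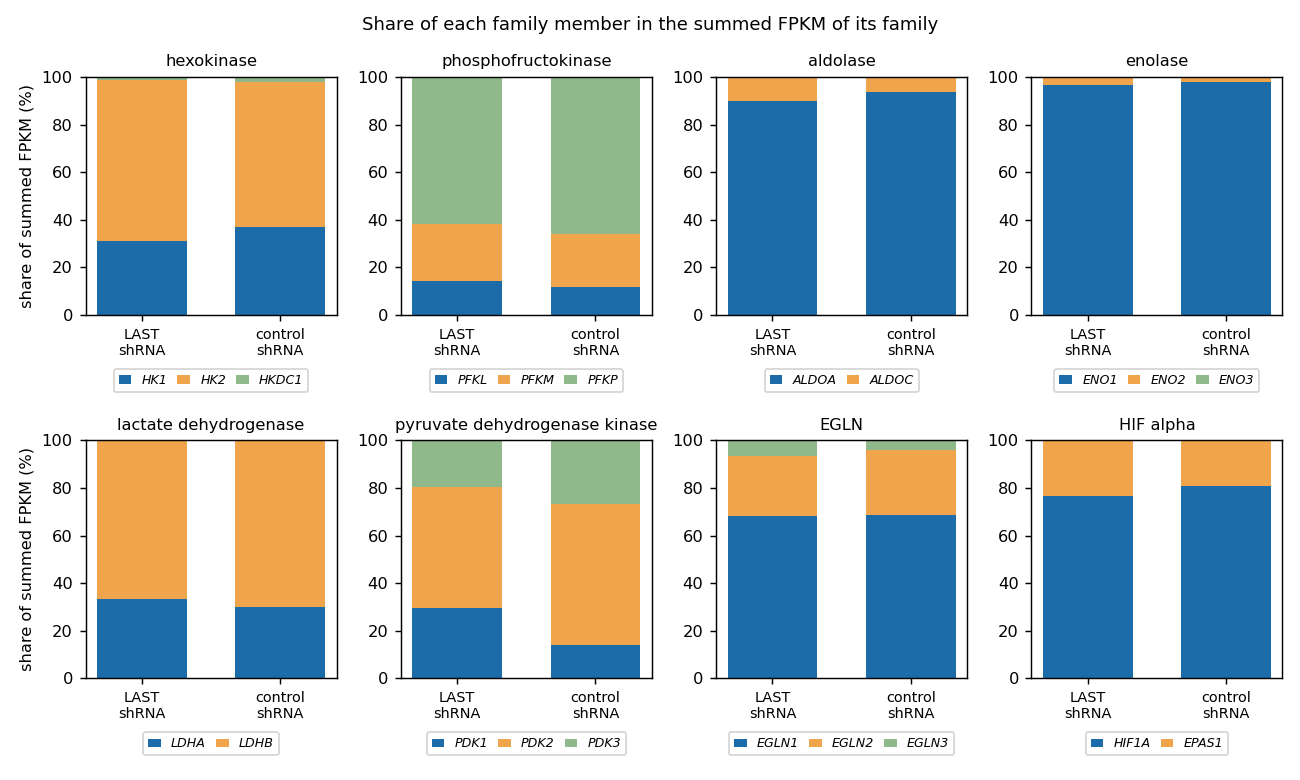
Share of each member in the summed FPKM of its family in percent, with the LAST shRNA bar left of the control shRNA bar, 1 library each. PDK1 makes up 29.6% of its family with LAST shRNA against 14.2% in the control, HK2 67.5% with LAST shRNA against 60.9% in the control, and the EGLN and lactate dehydrogenase bars differ little.

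Genes of the HIF transcription factor itself showed small ratios. HIF1A was at 29.9 FPKM with LAST shRNA and 28.3 with control shRNA (log2 ratio 0.08), and ARNT at 4.41 with LAST shRNA against 4.53 in the control (-0.03). EPAS1, which encodes the other alpha subunit, was at 9.04 with LAST shRNA against 6.66 in the control, 1.36-fold higher (0.39). HIF1A made up 76.8% of the summed alpha subunit FPKM with LAST shRNA and 80.9% with control shRNA. These are mRNA levels, and the amount of HIF protein was not measured in these data.

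The group was compared with related lists. Of 37 further names listed for hypoxia-induced genes, 33 were in the table. Among these 33, 5 were higher, 0 were lower and 28 were above 0, with a median log2 ratio of 0.29. These are 15.2% higher and 84.8% above 0, where 6.80% and 51.3% of all records were. This list too was chosen with earlier results of these data known, so its direction is not independent evidence. HILPDA, a lipid droplet protein gene, had the largest ratio of them at 10.0 FPKM with LAST shRNA and 1.26 with control shRNA, 7.98-fold higher (2.29). ANGPTL4, a secreted inhibitor of lipoprotein lipase, was at 9.39 with LAST shRNA against 2.32 in the control, 4.05-fold higher (1.65). AK4, a mitochondrial adenylate kinase, was at 9.50 with LAST shRNA against 4.60 in the control (0.91), the transcriptional repressor gene BHLHE40 at 10.8 with LAST shRNA against 6.56 in the control (0.64), and C4orf3 at 9.12 with LAST shRNA against 5.65 in the control (0.61). GYS1, glycogen synthase, was at 10.3 with LAST shRNA against 14.2 in the control (-0.42). Of 13 measured genes of other glycolytic isoforms and steps 0 were higher and 1 was lower, and their median was 0.08. The lower gene was BPGM, which makes 2,3-bisphosphoglycerate, at 1.49 FPKM with LAST shRNA against 3.85 in the control (-0.96). Over all records 5.88% were lower, so 1 in 13 is close to that share.

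Genes that restrain or assist HIF had a median close to that of all records, and 2 of them were lower. Of 12 measured genes of HIF degradation and cofactors, 3 were above 0 and 9 below, where 51.3% of all records were above 0. The median log2 ratio was -0.04. A call of lower was made for 2 and of higher for 0, where 5.88% of all records were lower and 6.80% higher. HIF1AN, the asparaginyl hydroxylase that blocks the coactivator contact of HIF alpha, was at 3.13 FPKM with LAST shRNA and 10.8 with control shRNA, 3.45-fold lower (-1.51). SIAH2, a ubiquitin ligase that targets EGLN proteins for degradation, was at 3.94 with LAST shRNA against 16.8 in the control, 4.26-fold lower (-1.85). VHL, the substrate receptor of the ligase that destroys HIF alpha, was at 4.88 with LAST shRNA against 3.27 in the control (0.46). The largest exon holds 91.5% of the longest coding transcript in HIF1AN and 62.5% in SIAH2. At the entry of pyruvate into mitochondria 0 of 12 measured genes were higher and 1 was lower, DLAT, the acetyltransferase subunit of pyruvate dehydrogenase, at 16.1 with LAST shRNA against 29.1 in the control (-0.82), and 10 of the 12 were below 0, with a median of -0.15. A count of 1 in 12 is close to the 5.88% of all records that were lower.

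**Figure D3:**
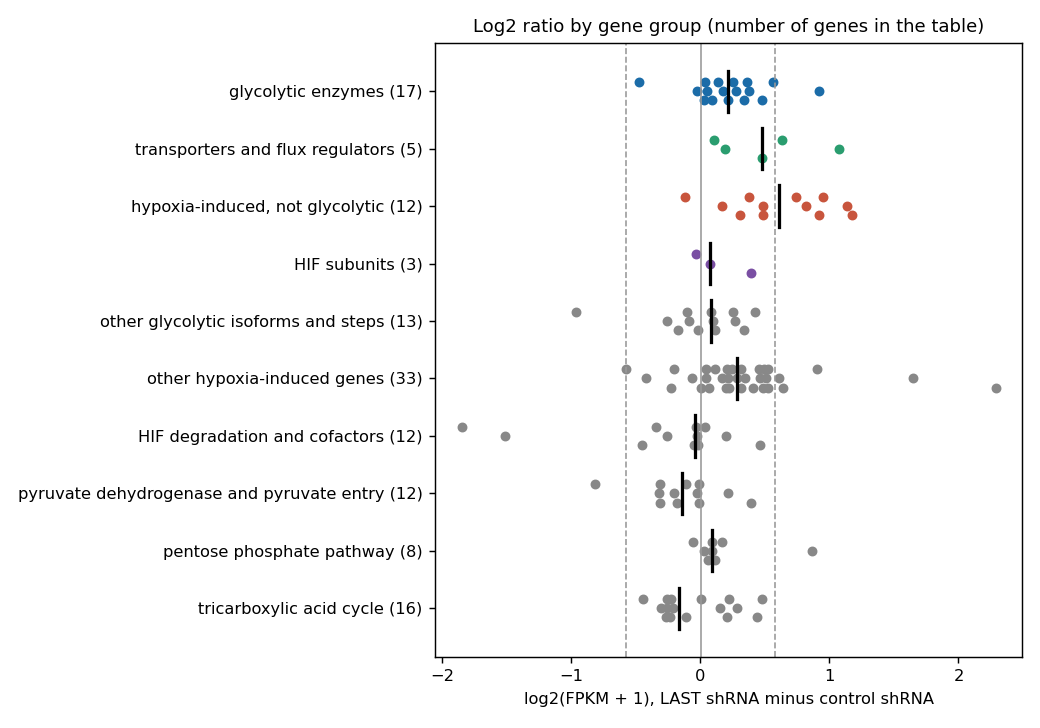
Log2 ratio of each gene, LAST shRNA minus control shRNA, by list, with the number of measured genes in brackets, a black bar at the list's median, dashed lines at -0.58 and 0.58 and a grey line at the median of all records. The 12 hypoxia-induced genes that are not glycolytic reach 1.17 with their median at 0.61, right of the glycolytic enzymes at 0.21. The other hypoxia-induced genes reach 2.29 with their median at 0.29, while HIF1AN and SIAH2 lie far to the left.

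Apart from SLC2A1, at 60.5 FPKM with LAST shRNA and 28.2 with control shRNA, the higher genes were moderately or weakly expressed. Across the 37 genes the log2 ratio and the FPKM with control shRNA had a Spearman correlation of -0.49, a description over genes that share the same 2 libraries, and the control value enters both measures. Over all records the same value was -0.21. At a mean FPKM from 5 to under 20, 5 of 12 members were higher, where 6.74% of all records in that range were, and these 5 also lay above the 95th percentile of those records (0.69). Under 1 neither CA9 nor EGLN3 was higher (6.91% of all records). From 1 to under 5, 3 of 7 members were higher (7.25% of all records), and from 20 to under 100 it was 1 of 9 (5.96%), SLC2A1. At 100 or above 0 of 7 members were higher (4.46%), with TPI1 at the 5th percentile of -0.47. Compared at 5 to under 20 FPKM, where both classes have members, ADM, BNIP3, BNIP3L, NDRG1 and ALDOC were higher, and HK1, PFKL, ENO2, EGLN1, P4HA1, PFKFB3 and EPAS1 were between the thresholds.

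**Figure D4:**
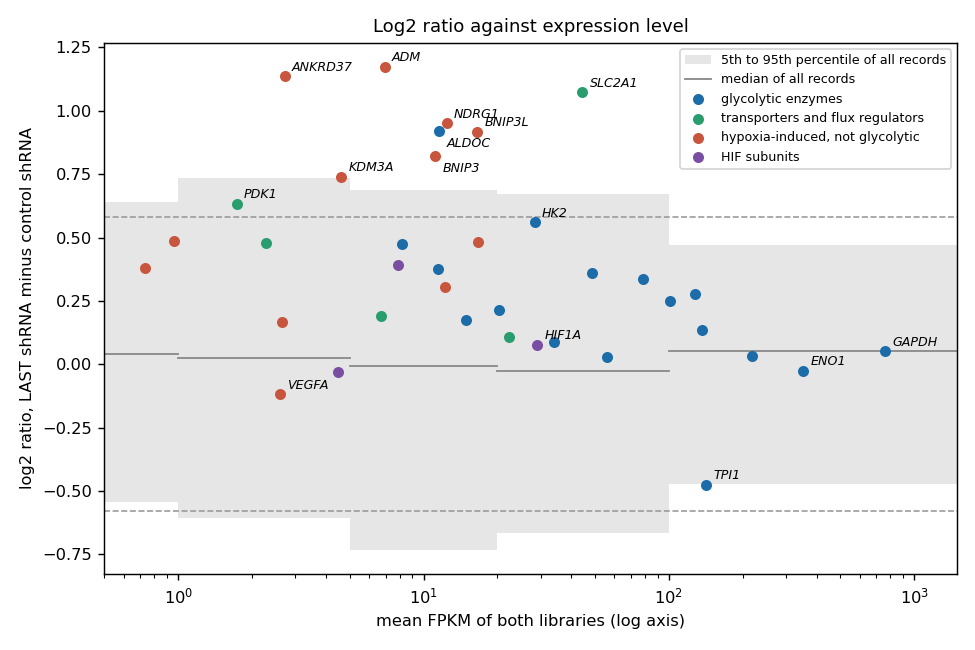
Log2 ratio of the 37 genes, LAST shRNA minus control shRNA, against mean FPKM of both libraries on a log axis, coloured by class, over the 5th to 95th percentile (grey) and median (grey line) of all records in 5 ranges of level, with dashed lines at -0.58 and 0.58. ADM, ANKRD37, SLC2A1, NDRG1, BNIP3L, ALDOC, BNIP3 and KDM3A lie above the grey area and GAPDH lies on its median.

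Exon structure differed between the classes and went with the share of called genes over the whole table. The median share of the longest coding transcript held by the largest exon was 53.0% in the hypoxia-induced genes, 58.02% in the transporters and flux regulators and 28.6% in the glycolytic enzymes. Of all records with a largest exon under 50%, 3.89% were higher, and at 50% or more 9.03% were. Among members under 50%, 2 of 5 hypoxia-induced genes (ANKRD37 and KDM3A) and 1 of 13 glycolytic enzymes (ALDOC) were higher, with medians of 0.48 and 0.17. Among those at 50% or more it was 4 of 7 and 0 of 4, with medians of 0.82 and 0.29. EGLN3 is among these 7 because its longest coding transcript has 1 exon, and other transcripts of a gene were not read. The part of exon structure in the class difference was not tested beyond these values.

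Overlapping genes touched 10 of the 37 records, 4 on the same strand and 6 on the opposite strand, and whether counting used strand is not stated. CA9 shared 2011 bases with ARHGEF39 on the opposite strand, which had the higher level of the pair, at 2.19 FPKM with LAST shRNA and 2.23 with control shRNA (-0.02). SLC16A3 shared 22107 bases with CSNK1D, also on the opposite strand, at 9.94 FPKM with LAST shRNA and 8.47 with control shRNA (0.21). GPI, which was between the thresholds, shared 5842 bases with RP11-618P17.4 on the same strand. RP11-618P17.4 was past the threshold on a low level, at 0.629 FPKM with LAST shRNA and 0 with control shRNA (0.70). Of the 9 higher genes, ANKRD37 and ALDOC had such a neighbour, and in both cases its ratio was under the threshold, at 0.07 for UFSP2 and 0.22 for RP11-192H23.4.

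The promoters of some of the higher genes and of LDHA are shown to let the HIF core letters be read beside the values. KDM3A and PDK1, also higher and with a promoter entry, are not printed. KDM3A had 1 match and PDK1 had 0. Each run holds 300 bases from RefSeq on GRCh38.p14, from 250 bases before the gene's start to 50 bases after it, on the strand of the gene. Each gene was read at 1 annotated start, and any other starts were not read, so the counts of matches depend on that start. Capitals mark each ACGTG or GCGTG on either strand (CACGT or CACGC when read on the other), and CACGTG counts as a match on both strands. Genes with high ratios are ANKRD37 (chr4:185396591-185396890), ADM (chr11:10304823-10305122), BNIP3 (chr10:131981874-131982173, minus strand), SLC2A1 (chr1:42958819-42959118, minus strand) and ALDOC (chr17:28576846-28577145, minus strand). LDHA (chr11:18394313-18394612) is a HIF target enzyme with a ratio of 0.25.
ANKRD37: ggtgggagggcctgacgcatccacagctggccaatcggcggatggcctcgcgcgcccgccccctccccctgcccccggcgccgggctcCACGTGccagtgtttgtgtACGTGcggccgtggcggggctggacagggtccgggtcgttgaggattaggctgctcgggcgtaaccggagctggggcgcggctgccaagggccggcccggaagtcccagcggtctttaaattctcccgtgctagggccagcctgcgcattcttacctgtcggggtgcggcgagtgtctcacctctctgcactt
ADM: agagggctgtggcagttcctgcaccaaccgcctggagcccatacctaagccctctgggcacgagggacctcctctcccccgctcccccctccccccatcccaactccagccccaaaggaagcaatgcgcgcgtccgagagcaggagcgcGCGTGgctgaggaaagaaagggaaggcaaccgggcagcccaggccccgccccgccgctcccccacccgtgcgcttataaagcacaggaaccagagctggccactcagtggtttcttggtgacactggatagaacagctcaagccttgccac
BNIP3: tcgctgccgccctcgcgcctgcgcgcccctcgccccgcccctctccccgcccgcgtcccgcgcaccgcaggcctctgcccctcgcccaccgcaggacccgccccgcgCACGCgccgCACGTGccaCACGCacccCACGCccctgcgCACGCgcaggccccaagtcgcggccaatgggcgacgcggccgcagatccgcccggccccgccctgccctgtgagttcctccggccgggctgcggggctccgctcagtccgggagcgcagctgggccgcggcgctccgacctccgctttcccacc
SLC2A1: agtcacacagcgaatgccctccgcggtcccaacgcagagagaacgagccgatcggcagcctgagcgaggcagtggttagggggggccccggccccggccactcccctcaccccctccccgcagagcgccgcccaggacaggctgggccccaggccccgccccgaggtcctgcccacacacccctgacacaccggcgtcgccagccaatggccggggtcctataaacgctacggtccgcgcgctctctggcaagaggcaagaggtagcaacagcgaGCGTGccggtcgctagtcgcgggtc
ALDOC: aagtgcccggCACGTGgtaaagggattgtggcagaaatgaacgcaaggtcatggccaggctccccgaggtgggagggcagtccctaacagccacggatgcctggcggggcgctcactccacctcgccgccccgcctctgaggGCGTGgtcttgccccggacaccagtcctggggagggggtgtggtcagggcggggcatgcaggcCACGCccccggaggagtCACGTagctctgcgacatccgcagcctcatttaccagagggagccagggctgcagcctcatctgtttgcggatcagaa
LDHA: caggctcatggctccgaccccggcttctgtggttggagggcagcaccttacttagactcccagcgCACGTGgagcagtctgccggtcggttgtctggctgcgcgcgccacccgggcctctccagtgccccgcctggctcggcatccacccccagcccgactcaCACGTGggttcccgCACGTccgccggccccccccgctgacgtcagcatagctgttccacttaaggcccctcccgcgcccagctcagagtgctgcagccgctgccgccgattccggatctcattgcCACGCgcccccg

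Core letters stood in promoters of genes with high and with small ratios. LDHA and BNIP3 each had 6 matches, with log2 ratios of 0.25 and 0.82, ALDOC had 5, ANKRD37 had 3, and ADM and SLC2A1 had 1 each, in SLC2A1 at base 26 after the start. Part of these counts comes from CACGTG, which is matched on both strands. LDHA held 2 CACGTG, and BNIP3, ALDOC and ANKRD37 held 1 each. In ANKRD37 the 3 matches began 162, 161 and 143 bases before the start. Of the 37 genes 34 matched an entry in the promoter table, and BNIP3L, NDRG1 and VEGFA had none. At least 1 ACGTG or GCGTG was found in 12 of 17 glycolytic enzyme promoters (70.6%), in 7 of 9 promoters of hypoxia-induced genes that are not glycolytic (77.8%), and in 64.4% of 8846 promoters of genes in the table. By call, 6 of 7 promoters of higher genes and 18 of 27 of the others held one, and PDK1 was the higher gene without one. The letters ACGTG were in 13 of 34 member promoters (38.2%) and in 27.3% of the promoters of genes in the table. The letters GCGTG were in 16 of 34 (47.1%) and in 52.0%, and a promoter with both was counted in each. The letters CACGTG were in 5 of 34 member promoters (14.7%) and in 10.5% of the promoters of genes in the table. A match is a description of letters in this window and not a site.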

How the data were processed

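Phenol and chloroform were used to take total RNA from HCT116 cells 96 hr after infection, and a stranded library was made per group (1 with LAST shRNA, 1 with control shRNA). The submitters' processing notes name the build hg19 and, as tools, HISAT2, StringTie, cutadapt and FastQC. Their versions and settings, and whether counting used strand, were not given in the sources used here. The authors deposited FPKM values for 11420 protein-coding records, and the higher value of each record was at least 0.5. Depth is unknown, so no counting interval is given.

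Libraries were assigned by their titles. No test was possible with 1 library per group. The log2 ratio used a pseudocount of 1 and no further scaling. All 37 members are named, with genes of the other lists that passed 0.58 in either direction, some paralogs of members and some overlapping records. VHL, GYS1, SLC16A1, SUCLG2 and the cell type markers given were named after their values were seen. The members and lists were chosen with earlier results of these data known, so their direction is not independent evidence. Exon structure and processed pseudogene names came from GENCODE release 29 (GRCh38), joined by gene identifier or name only (11314 records, 99.1%, had exon structure). Promoters came from RefSeq (GRCh38.p14), and for 31 of 34 members the bases after the start opened or lay in a GENCODE transcript of the gene, which checked the orientation. The code that makes the calls was tested on simulated data with known changes, which gives no measure of replicate error. Alternatives were 3 scalings, 2 pseudocounts, 2 filters, a threshold of 1 and a limit on the largest exon. Python 3.11.15, numpy 2.4.6, pandas 2.3.3, scipy 1.17.1 and matplotlib 3.10.9 were used.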

Additional observations from a re-analysis of the deposited data

How the results depend on the processing

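No paired analysis was possible because each group had 1 library, so no replicate could be left out either. The member counts were 9 higher and 0 lower with the median of all records set to 0, with equal upper quartiles and with FPKM of at least 1 in either or both libraries. They were 12 and 0 with a pseudocount of 0.1 and with TPM, and 10 and 0 with a pseudocount of 0.5, where EGLN3 and, for the first 2 settings, PFKFB4 and CA9 passed. At a threshold of 1 SLC2A1, ADM and ANKRD37 were left, 3 members higher, beside 318 of all records higher (2.78%) and 286 lower. With records limited to a largest exon under 50% of the transcript, 3 of 21 members were higher, beside 198 of 5089 records higher (3.89%, against 6.80% of all records) and 158 lower. Fewer records were counted and a smaller share of them was higher. The median of the hypoxia-induced genes ranged from 0.48 with that limit on exons to 0.89 with a pseudocount of 0.1, and that of the glycolytic enzymes from 0.17 to 0.22. The difference of medians was -0.67 with a pseudocount of 0.1 and -0.65 with TPM, and over all settings it lay between -0.67 and -0.31. Records called higher were 1242 with a pseudocount of 0.1 and 1198 with TPM. TPM over these records raises every value, which makes the added 1 smaller in relation. Values of members under an FPKM of 1, such as CA9 and EGLN3, are limited by an unknown depth.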

Other observations

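Neighbouring routes of glucose carbon had medians nearer to 0 than the glycolytic enzymes (0.21). In the pentose phosphate pathway 1 of 8 genes was higher and 0 were lower, where 6.80% and 5.88% of all records were. Of the 8 genes 7 were above 0 (87.5%, where 51.3% of all records were), with a median log2 ratio of 0.09. The higher gene was H6PD, the enzyme that starts the pathway in the endoplasmic reticulum, at 2.92 FPKM with LAST shRNA and 1.15 with control shRNA (0.87). Of 16 genes of the tricarboxylic acid cycle 0 passed either threshold and 9 were below 0, with a median of -0.16. SUCLG2, a subunit of succinyl-CoA ligase, had the highest ratio of them, at 15.4 FPKM with LAST shRNA against 10.8 in the control (0.48).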
